A study of Mus musculus with 28 samples.

Results

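A set of 9 transcription factors that set and keep the identity of the intestinal epithelium was measured in 28 RNA sequencing libraries of mouse small intestine: Cdx1, Cdx2, Hnf4a, Hnf4g, Gata4, Gata6, Klf4, Klf5 and Elf3. They were taken by gene symbol from a table of 54354 genes. Each of the 9 symbols stood in 1 row, and all 9 were among the 12495 genes that passed the filter on low counts. The mice carried the Lgr5-GFP genotype, a reporter that makes green fluorescent protein from the locus of Lgr5, the receptor gene that marks stem cells of the crypt base. Cells had been separated into Lgr5-high and Lgr5-low populations, from animals on a diet with cystine or on a control diet. The 4 groups of 7 libraries each were Lgr5-high cells on cystine, Lgr5-high cells on control diet, Lgr5-low cells on cystine and Lgr5-low cells on control diet. The labels give no age, dose or feeding time, and nothing in them states that each library is a different animal. A p-value here therefore measures only how far the 28 libraries scatter, which may be technical. The extraction protocol in the labels names organoids as the source of RNA while the design text speaks of cells isolated from the intestine. Which of these was the source could not be settled.

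CDX proteins are homeobox factors that open intestinal enhancers and keep stomach and oesophageal genes silent, and Cdx2 is the master regulator of intestinal fate. HNF4 proteins are nuclear receptors that drive genes of the brush border and of fat absorption, and in mice the pair Hnf4a and Hnf4g can largely stand in for each other in enterocytes. GATA factors set the difference between upper and lower small intestine, Klf4 and Klf5 are zinc finger factors often described as opposites, one of arrested and one of dividing cells, and Elf3 is an ETS factor of differentiating epithelium.

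Total counts per library, in units of 1000000 counts (M), ran from 2.75 to 14.9 M in Lgr5-high cystine libraries, with a median of 5.32 M, and from 4.05 to 21.4 M, median 15.4 M, in Lgr5-high control libraries. They ran from 4.11 to 21.5 M, median 14.8 M, in Lgr5-low cystine libraries and from 3.09 to 18.9 M, median 7.30 M, in Lgr5-low control libraries. Lgr5 checked the sort. Its level, in CPM (counts per M after TMM scaling), averaged 25.8 ± 7.89 in Lgr5-high cystine, 35.0 ± 9.06 in Lgr5-high control, 6.76 ± 2.89 in Lgr5-low cystine and 4.19 ± 3.61 in Lgr5-low control libraries (SD, n = 7 each). The 2 populations did not overlap in Lgr5, with 14 libraries each. All 10 genes of an intestinal stem cell list were higher in Lgr5-high cells over both diets and 7 of 8 goblet cell genes were lower. Markers of stromal and smooth muscle cells were at or near 0, with Des at 0 in every group and the 9 genes together at no more than 9.48 CPM in any library. Of 8 stomach genes, 6 were at 0 in every library of every group, Sox2, Gkn1, Gkn2, Tff1, Muc5ac and Atp4b among them.

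All 9 factors had counts in all 28 libraries. Per kilobase of exon the median level over the 28 libraries was 44.1 CPM per kb for Hnf4a, 30.8 for Elf3, 23.6 for Klf5, 17.7 for Cdx1, 17.7 for Hnf4g, 7.76 for Cdx2, 5.04 for Klf4, 4.10 for Gata4 and 3.78 for Gata6. Hnf4a was above Elf3 in 27 of 28 libraries, Elf3 above Klf5 in 24 and Hnf4g above Cdx2 in 25. Cdx1 and Hnf4g were not ordered, since Cdx1 was the higher of the pair in 15 of 28 libraries. The lower ranks were also mixed, with Klf4 above Gata4 in 18 and Gata4 above Gata6 in 21 of 28.

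**Figure D1:**
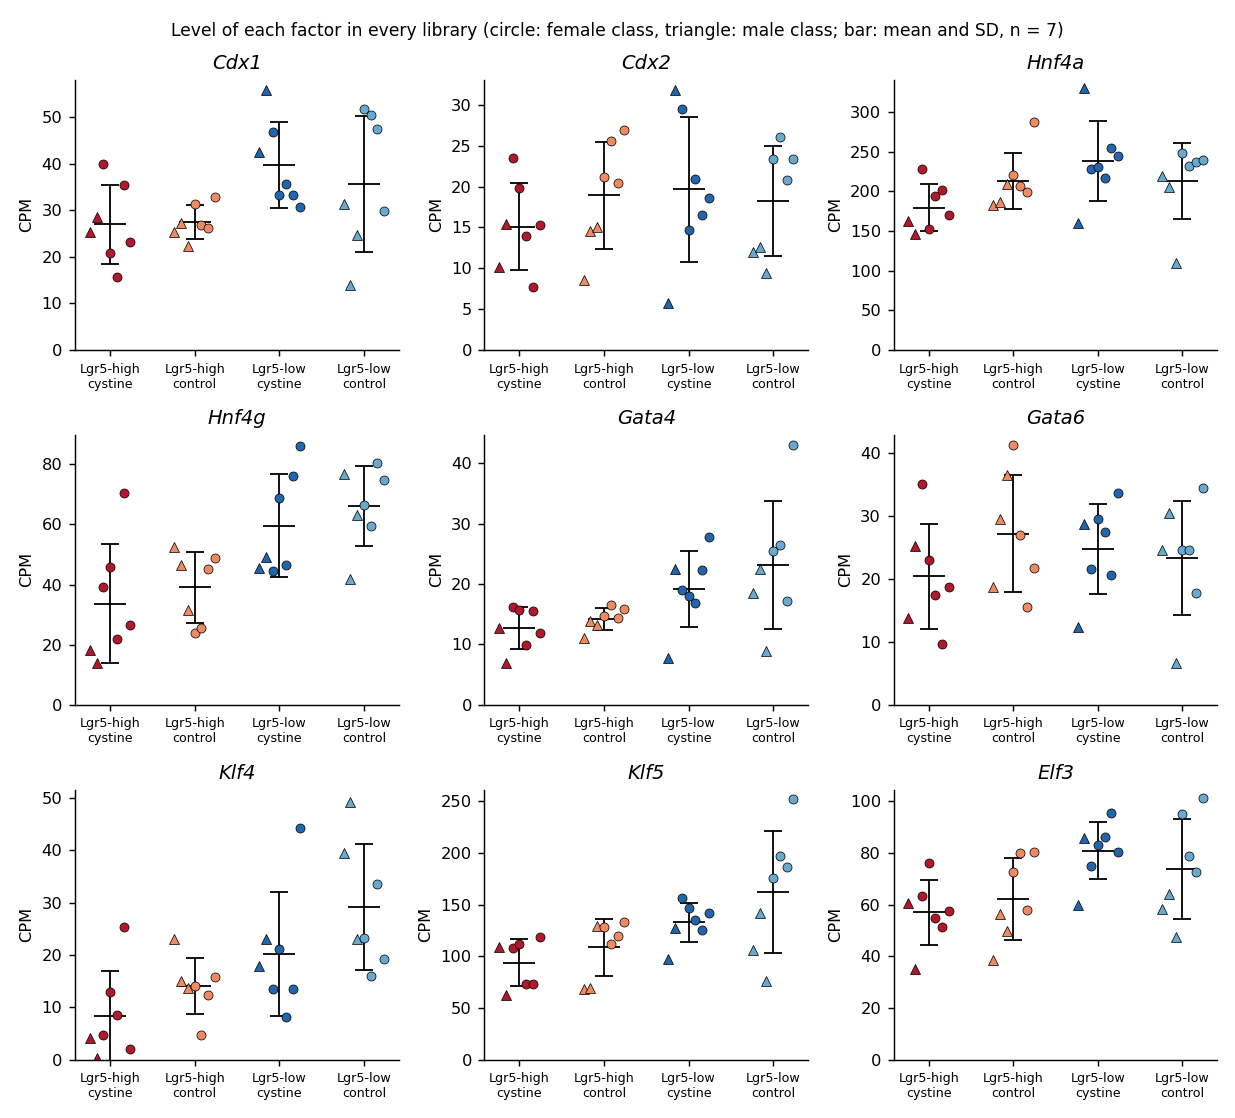
Level of each of the 9 factors in CPM (linear axis from 0) in every library of the 4 groups, with circles for libraries of the female class and triangles for those of the male class, both read from Xist, and bars for mean and SD (n = 7; the lower bar of Klf4 in Lgr5-high cystine libraries ends at the axis). Hnf4g, Klf4, Klf5 and Gata4 sat lower in both Lgr5-high groups, with overlap between populations in every panel.

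The first question was which of the factors follow the sorted populations. Over both diets, 4 of the 9 factors were lower in Lgr5-high than in Lgr5-low cells and 0 were higher. These were Klf4 at 0.442-fold, Hnf4g at 0.576-fold, Gata4 at 0.639-fold and Klf5 at 0.689-fold. All 9 log2 fold changes were negative. The test was edgeR's quasi-likelihood test on 14 against 14 libraries, adjusted over all 12495 genes, and it called 8.8% of genes in either direction and 5.05% as lower. An unadjusted p under 0.05 was found for 6 of 9 factors and 22.5% of genes. Negative values were held by 52.3% of all genes, and the median log2 fold change was -0.47 over the 9 factors and -0.02 over all genes. Markers of some other cell types moved with the populations too. Paneth cell genes did not pass (0 of 4 called, all 4 values positive, median log2 fold change 0.33). Enteroendocrine genes summed to between 51.1 and 196 CPM in Lgr5-high and between 203 and 742 CPM in Lgr5-low libraries (5 of 8 lower, median log2 fold change -2.10), and tuft cell genes to between 4.13 and 29.6 CPM in Lgr5-high and between 12.3 and 50.3 CPM in Lgr5-low libraries (2 of 5 lower, median -1.27). Mitochondrial genes took 15.3 to 25.5% of counts in Lgr5-high and 14.2 to 19.2% in Lgr5-low libraries. The part of these in the factors' levels was not tested. In bulk RNA, fewer cells of a type and less RNA per cell cannot be told apart. No factor separated the populations completely: 0 of 9 had all Lgr5-high libraries below all Lgr5-low libraries, a pattern found in 0.04% of genes.

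**Figure D2:**
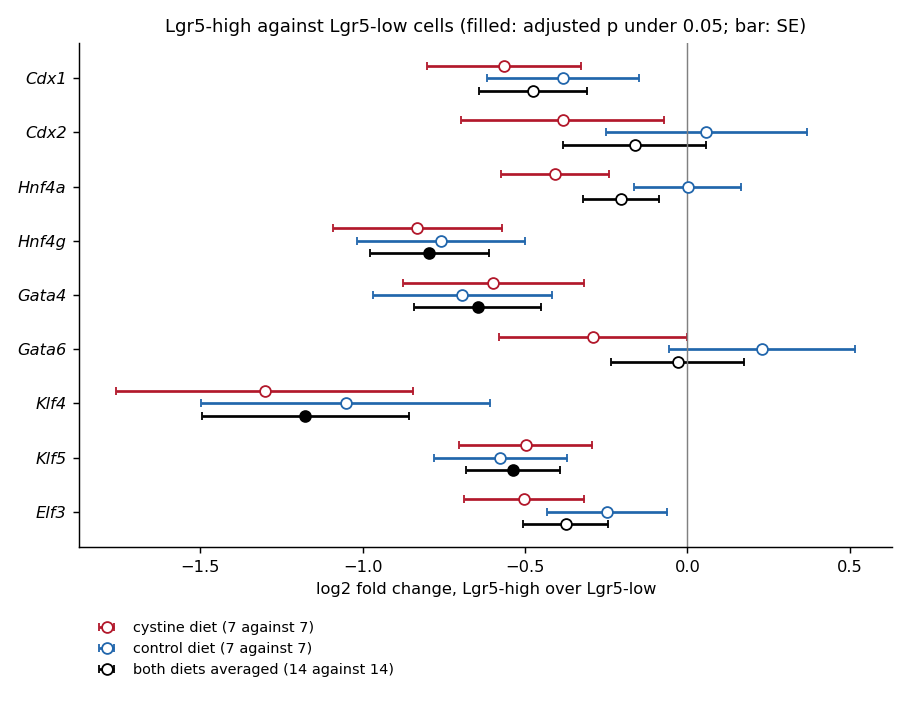
Log2 fold change of each factor in Lgr5-high over Lgr5-low cells, on cystine diet (7 against 7 libraries), on control diet (7 against 7) and over both diets (14 against 14), with bars for the SE and filled points for an adjusted p under 0.05. The 4 filled points are Hnf4g, Gata4, Klf4 and Klf5 over both diets. On control diet Cdx2 (0.06) and Hnf4a (0.00) lie near 0, and Gata6 lies at 0.23 with an SE of 0.29.

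Of the CDX pair, neither passed in edgeR over all libraries. Cdx1 (chromosome 18, 61018862 to 61036199, minus strand, GRCm38), which is made mainly in crypts, ran from 15.7 to 40.0 CPM (median 25.3) in Lgr5-high cystine and from 22.3 to 32.8 (median 26.8) in Lgr5-high control libraries. In Lgr5-low cells it ran from 30.6 to 56.0 CPM (median 35.7) on cystine and from 13.9 to 51.9 (median 31.4) on control diet. The populations overlapped, with 12 of 14 Lgr5-high libraries under the Lgr5-low median and a log2 fold change of -0.47 with an SE of 0.17 (edgeR adjusted p = 0.0660; values after ± on log2 fold changes are SE). Cdx1 passed when any one of 4 libraries was left out, Lgr5-low control replicates 2 and 3 and Lgr5-high cystine replicates 3 and 6 (adjusted p 0.0167 to 0.0376), and without the libraries under 5 M counts (-0.72, adjusted p = 0.00450). It also passed with limma-voom, run throughout with sample quality weights (-0.64, adjusted p = 0.00295), and in edgeR with a term for sex class (adjusted p = 0.0460). Cdx1 did not pass with DESeq2 (adjusted p = 0.0596) or in edgeR with the replicate number as a block (adjusted p = 0.0759). In all, it passed in 4 of 28 fits that left out 1 library and in 4 of 11 other settings.

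Cdx2 (chromosome 5, 147300805 to 147307270, minus strand) ran from 7.74 to 23.5 CPM (median 15.3) in Lgr5-high cystine and from 8.61 to 27.0 (median 20.5) in Lgr5-high control libraries. Lgr5-low libraries held from 5.74 to 31.8 CPM (median 18.6) on cystine and from 9.39 to 26.0 (median 20.8) on control diet. Its values were spread about as widely within each group as over the whole set, and the log2 fold change was -0.16 ± 0.22 (adjusted p = 0.739), with an approximate 95% interval of -0.59 to 0.27.

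Of the HNF4 genes, Hnf4g was lower in Lgr5-high cells and Hnf4a did not pass. Hnf4a (chromosome 2, 163506808 to 163572910, plus strand) ran from 146 to 228 CPM (median 170.4) in Lgr5-high cystine and from 183 to 287 (median 207) in Lgr5-high control libraries. In Lgr5-low cells it ran from 160.3 to 329.7 CPM (median 231) on cystine and from 110.0 to 248 (median 231) on control diet. Although 13 of 14 Lgr5-high libraries lay under the Lgr5-low median, the log2 fold change was -0.20 ± 0.12 (adjusted p = 0.313). Hnf4a is also a factor of hepatocytes, and 8 hepatocyte genes, Alb and Ttr among them, summed to between 352 and 1408 CPM in the libraries of all 4 groups. Within groups Hnf4a did not rise with the mean of these 8 genes (Pearson r = -0.19 over 28 libraries that share depth and preparation), and their part in its level was not tested.

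Hnf4g (chromosome 3, 3508030 to 3658052, plus strand) ran from 13.97 to 70.4 CPM (median 26.5) in Lgr5-high cystine and from 24.0 to 52.4 (median 45.3) in Lgr5-high control libraries. In Lgr5-low cells it ran from 44.4 to 86.2 CPM (median 49.2) on cystine and from 41.8 to 80.4 (median 66.4) on control diet. Of the 14 Lgr5-high libraries 8 lay below all 14 Lgr5-low libraries and 13 below their median. Hnf4g averaged 36.4 ± 15.9 CPM in Lgr5-high and 62.8 ± 15.1 in Lgr5-low cells (SD, n = 14 each), a log2 fold change of -0.80 ± 0.18 (adjusted p = 0.00374). It passed in all 28 fits that left out 1 library and in all 11 other settings listed in the processing section.

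The gene of Hnf4a has 2 start sites in RefSeq, used for different isoforms, and the deposited counts are per gene, so that the isoforms cannot be told apart. The windows around both starts, 250 bases before to 50 after, are printed 5′ to 3′ (RefSeq, GRCm38.p6, plus strand) because they show where the searched motifs do and do not occur.
Hnf4a, upstream start, chr2:163506607-163506906: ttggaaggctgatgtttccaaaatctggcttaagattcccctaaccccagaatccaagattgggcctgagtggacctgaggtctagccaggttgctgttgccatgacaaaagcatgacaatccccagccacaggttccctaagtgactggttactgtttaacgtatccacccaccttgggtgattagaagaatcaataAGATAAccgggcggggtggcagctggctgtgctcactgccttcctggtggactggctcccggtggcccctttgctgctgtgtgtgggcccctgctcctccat
Hnf4a, downstream start, chr2:163546905-163547204: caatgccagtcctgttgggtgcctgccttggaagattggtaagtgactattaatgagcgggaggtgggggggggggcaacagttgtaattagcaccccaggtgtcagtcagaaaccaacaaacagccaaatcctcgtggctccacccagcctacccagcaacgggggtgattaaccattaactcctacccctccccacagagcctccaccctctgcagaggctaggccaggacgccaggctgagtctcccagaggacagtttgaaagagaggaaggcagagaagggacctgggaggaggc
Capitals mark AGATAA, a known site of the zinc finger family of Gata4 and Gata6, 52 bases before the upstream start. This motif was searched on both strands together with TTTATG (CDX), CAAAGTNCA (HNF4), CACACCC (KLF) and GGAAGT (ETS), none of which overlap it. Of 32851 mouse promoters of this length, 11.2% held AGATAA, 11.9% TTTATG, 1.41% CAAAGTNCA, 7.95% CACACCC and 23.8% GGAAGT. Promoter windows were at hand for 4 of the 9 factors (Hnf4a with both of its starts, Elf3, Klf4 and Cdx2), and the AGATAA of Hnf4a was the 1 match in these 5 windows. A match describes the letters in the window and is not evidence of a bound site.

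Of the GATA pair, Gata4 was lower and Gata6 was not shown to differ. Gata4 (chromosome 14, 63198922 to 63271692, minus strand), which in mice marks the upper small intestine and is needed for its absorptive genes, ran from 6.99 to 16.2 CPM (median 12.8) in Lgr5-high cystine and from 11.1 to 16.5 (median 14.3) in Lgr5-high control libraries. In Lgr5-low cells it ran from 7.76 to 27.8 CPM (median 19.0) on cystine and from 8.94 to 43.0 (median 22.5) on control diet. All 14 Lgr5-high libraries lay below the Lgr5-low median, in a narrower band than the Lgr5-low libraries. The means were 13.5 ± 2.73 CPM in Lgr5-high and 21.2 ± 8.57 in Lgr5-low cells (SD, n = 14 each; log2 fold change -0.65 ± 0.20, adjusted p = 0.0303). Gata4 did not pass without Lgr5-low control replicate 7 (-0.54, adjusted p = 0.0727) or without Lgr5-low cystine replicate 7 (-0.60, adjusted p = 0.0576), which held the highest Gata4 of their groups. Nor did it pass with the replicate number as a block (-0.57, adjusted p = 0.0708).

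Gata6 (chromosome 18, 11052064 to 11085635, plus strand), found along the whole intestine, ran from 9.58 to 35.0 CPM (median 18.7) in Lgr5-high cystine and from 15.6 to 41.1 (median 27.0) in Lgr5-high control libraries. Lgr5-low libraries held from 12.4 to 33.6 CPM (median 27.4) on cystine and from 6.66 to 34.4 (median 24.6) on control diet. The ranges nearly coincided (log2 fold change -0.03 ± 0.20, adjusted p = 0.960), and its approximate 95% interval was -0.43 to 0.37.

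Both KLF genes were lower in Lgr5-high cells, though they are known for opposite settings. Klf4 (chromosome 4, 55527143 to 55532466, minus strand), a factor of cells that have left the cycle and of goblet cells, ran from 0.349 to 25.4 CPM (median 4.71) in Lgr5-high cystine and from 4.80 to 23.03 (median 14.2) in Lgr5-high control libraries. Lgr5-low libraries held from 8.07 to 44.3 CPM (median 17.8) on cystine and from 16.1 to 49.1 (median 23.2) on control diet. Klf4 varied most of the 9 factors within a group, with a coefficient of variation of 104% in Lgr5-high cystine libraries, where the lowest library held 1 count and the highest, replicate 6, was the shallowest at 2.75 M. On control diet 6 of 7 Lgr5-high libraries lay below all 7 Lgr5-low libraries. Over both diets Klf4 averaged 11.2 ± 7.53 CPM in Lgr5-high and 24.6 ± 12.3 in Lgr5-low cells (SD, n = 14 each; log2 fold change -1.18 ± 0.32, adjusted p = 0.0151).

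The promoter window of Klf4 is printed because Klf4 had the largest change of the 9 and the base composition of this window is far from that of the typical mouse promoter (RefSeq, GRCm38.p6, minus strand, 5′ to 3′, 250 bases before to 50 after the start).
Klf4, chr4:55532426-55532725: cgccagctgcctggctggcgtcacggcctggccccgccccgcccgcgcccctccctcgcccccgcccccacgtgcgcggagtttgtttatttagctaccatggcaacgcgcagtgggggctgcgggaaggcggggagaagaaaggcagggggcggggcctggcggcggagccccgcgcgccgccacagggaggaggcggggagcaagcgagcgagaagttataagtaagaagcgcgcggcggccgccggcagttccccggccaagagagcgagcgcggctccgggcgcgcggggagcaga
It holds 74.3% G and C, against a median of 52.7% over the 32851 promoters, and 40 CpG pairs, and 0 matches to the 5 motifs, so it has no capitals.

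Klf5 (chromosome 14, 99298691 to 99315036, plus strand), a factor of dividing crypt cells, ran from 62.5 to 119 CPM (median 108) in Lgr5-high cystine and from 68.6 to 133 (median 119.6) in Lgr5-high control libraries. Among Lgr5-low libraries it lay at 97.7 to 156 CPM (median 135) on cystine and from 76.5 to 252.1 (median 176) on control diet. All 14 Lgr5-high libraries lay below the Lgr5-low median. The means were 101 ± 25.8 CPM in Lgr5-high and 148 ± 44.8 in Lgr5-low cells (SD, n = 14 each; log2 fold change -0.54 ± 0.15, adjusted p = 0.0142). Without the libraries under 5 M counts the value was -0.39 and no longer passed (adjusted p = 0.115).

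Elf3 (chromosome 1, 135253575 to 135258568, minus strand) ran from 35.3 to 76.1 CPM (median 57.7) in Lgr5-high cystine and from 38.7 to 80.2 (median 57.9) in Lgr5-high control libraries. Among Lgr5-low libraries it lay at 60.0 to 95.5 CPM (median 83.0) on cystine and from 47.6 to 101 (median 72.8) on control diet. Lgr5-high libraries tended to the lower part of the range, 12 of 14 under the Lgr5-low median, and the log2 fold change of -0.37 ± 0.13 fell just outside the threshold (adjusted p = 0.0650). Elf3 passed with DESeq2 (adjusted p = 0.0488) and limma-voom (0.0131). It also passed without any one of Lgr5-low control replicates 1 or 3, Lgr5-low cystine replicate 1, Lgr5-high control replicates 5 or 7, or Lgr5-high cystine replicates 3 or 4 (adjusted p 0.0197 to 0.0485). In all, Elf3 passed in 7 of 28 fits that left out 1 library and in 5 of 11 other settings. In edgeR without the libraries under 5 M counts it did not pass (-0.26, adjusted p = 0.223). Nor did it pass with a term for macrophage genes (-0.28, adjusted p = 0.322).

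Within a diet, with 7 against 7 libraries, 0 of the 9 factors passed in edgeR. On cystine all 9 log2 fold changes were negative, 7 with an unadjusted p under 0.05, and the median was -0.50. Negative values were held by 52.8% of all genes. The lowest p belonged to Hnf4g (-0.83 ± 0.26, adjusted p = 0.0750), followed by Klf4 (-1.30 ± 0.46, adjusted p = 0.128). Without Lgr5-high cystine replicate 6, Hnf4g (-1.12, adjusted p = 0.0100) and Klf4 (-1.85, adjusted p = 0.0150) passed. This comparison called 2.64% of genes and had an unadjusted p under 0.05 in 15.5%. On control diet 6 of 9 were negative, as were 50.6% of all genes, 4 with an unadjusted p under 0.05 (Hnf4g, Klf5, Gata4 and Klf4), with 1.8% of genes called and 12.9% at an unadjusted p under 0.05. Hnf4g stood at -0.76 ± 0.26 there (adjusted p = 0.134), and Hnf4a at 0.00 ± 0.17. DESeq2 called 0 of 9 on either diet, while limma-voom with sample quality weights called 4 on cystine (Cdx1, Hnf4g, Klf5 and Elf3) and 2 on control diet (Hnf4g and Klf5). Of all genes, limma-voom called 910 on cystine and 800 on control diet, DESeq2 585 and 410, and edgeR 330 and 225.

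Whether 2 genes of a family moved apart was read from the ratio of their counts in each library, from which library size drops out. The log2 ratio of Hnf4g to Hnf4a counts averaged -2.59 and -2.49 in Lgr5-high cells on cystine and control diet, and -2.02 and -1.67 in Lgr5-low cells on cystine and control diet. Over both diets the difference, Lgr5-high minus Lgr5-low, was -0.70 (two-sided exact permutation test within diets, p = 0.00281, adjusted p = 0.0350 over 24 ratio tests). On control diet alone it was -0.82 (exact permutation p = 0.0111, adjusted p = 0.0718). On cystine alone it was -0.57 (exact permutation p = 0.0967, adjusted p = 0.260), and neither passed. The Gata4 to Gata6 ratio on control diet averaged -0.87 in Lgr5-high and 0.00 in Lgr5-low cells (difference -0.87, exact permutation p = 0.00291, adjusted p = 0.0350). On cystine that difference was -0.23 (exact p = 0.498). Over both diets the GATA difference was -0.55 and did not pass (exact permutation p = 0.0120, adjusted p = 0.0718). These ratios were chosen after the levels had been seen. Both calls were close to the threshold. Over 28 repeats that each left out 1 library, the HNF4 difference lay between -0.79 and -0.62 (exact permutation p 0.000600 to 0.00594, adjusted p 0.00837 to 0.105) and the GATA difference between -0.99 and -0.77 (exact permutation p 0.000583 to 0.00874, adjusted p 0.0140 to 0.105). Each call was kept in 10 of the 28. Cystine libraries do not enter the GATA test on control diet, and leaving one out moved that call through the adjustment over the 24 tests alone. Of the 14 repeats that left out a control library, 4 kept the GATA call. The calls held without Lgr5-high cystine replicates 3, 4 and 6, Lgr5-high control replicates 1, 6 and 7, Lgr5-low cystine replicates 2, 3 and 5, and Lgr5-low control replicate 2.

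Klf4 over Klf5 differed by -0.93 over both diets (exact p = 0.0467, adjusted p = 0.187) and Cdx1 over Cdx2 by -0.31 (exact p = 0.202, adjusted p = 0.405), neither past the threshold. No ratio passed for diet, where the lowest p was that of Gata4 over Gata6 in Lgr5-low cells (-0.39, exact p = 0.0443, adjusted p = 0.187).

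**Figure D3:**
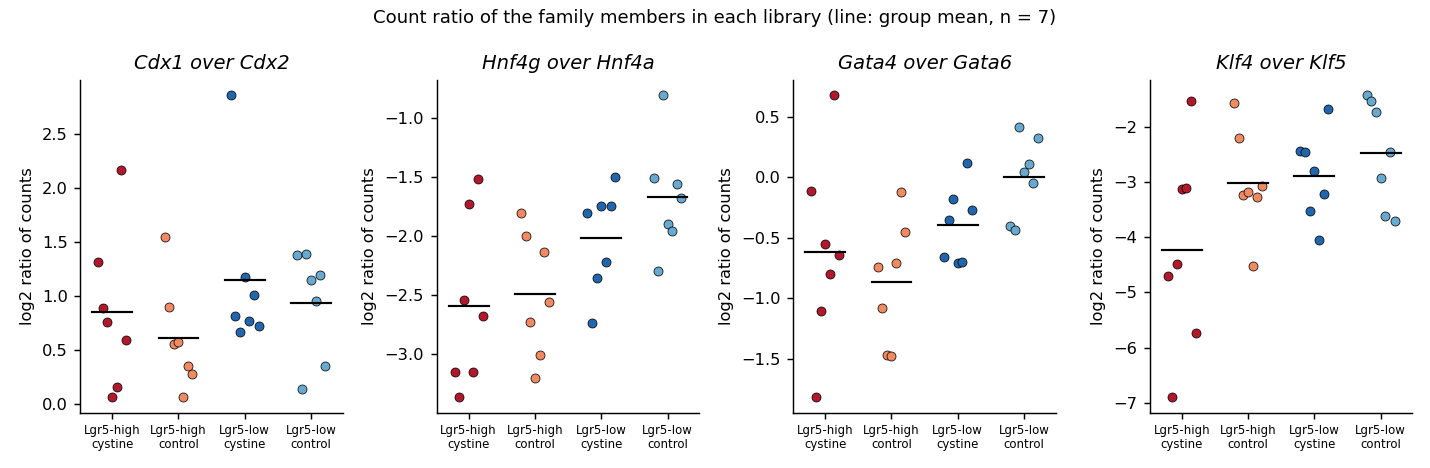
Log2 ratio of the counts of 2 members of a family in each library, by group, with lines at group means (n = 7). The Hnf4g to Hnf4a ratio sits lower in both Lgr5-high groups, and the Gata4 to Gata6 ratio is about -0.87 in Lgr5-high and about 0.00 in Lgr5-low libraries on control diet.

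The second question was what cystine did to the factors. In Lgr5-high cells 0 of 9 passed in edgeR, 0 had an unadjusted p under 0.05 (535 of the 12495 genes did), and DESeq2 and limma-voom also called 0. Of all genes, DESeq2 called 89 and limma-voom 39. In edgeR the comparison called 0.168% of genes, all of them higher on cystine. All 9 log2 fold changes were negative, as were 52.7% of all genes, with a median of -0.22 over the factors. Klf4 averaged 8.30 ± 8.62 CPM in cystine libraries and 14.1 ± 5.37 in control libraries (SD, n = 7 each; log2 fold change -0.78 ± 0.46, unadjusted p = 0.0965 in edgeR, adjusted p = 1), with 4 of 7 cystine libraries below and 1 above all 7 control libraries. Hnf4a averaged 179 ± 29.7 CPM on cystine and 213 ± 35.3 on control diet (-0.25 ± 0.17, adjusted p = 1), with 6 of 7 cystine libraries under the control median. The approximate 95% interval of the log2 fold change was -1.67 to 0.12 for Klf4, -0.94 to 0.28 for Cdx2 and -0.99 to 0.15 for Gata6, so changes within those bounds are not excluded. It was narrowest for Hnf4a, -0.57 to 0.08.

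Markers of macrophages moved with this comparison. The 12 macrophage genes summed to between 24.3 and 676 CPM (median 403) in Lgr5-high cystine and between 28.2 and 60.9 (median 46.8) in Lgr5-high control libraries, and 8 of 12 were higher on cystine. In Lgr5-low libraries the sum ran from 33.7 to 149 CPM on cystine and from 12.2 to 81.2 on control diet. Over both diets 10 of 12 were higher in Lgr5-high than in Lgr5-low cells. Within a diet this was 9 of 12 on cystine (median log2 fold change 2.47) and 0 of 12 on control diet (median 0.70). Dissociation stress genes summed to between 28.8 and 57.5 CPM in Lgr5-high cystine and between 10.6 and 32.1 in Lgr5-high control libraries. Within groups the correlation of each factor with the mean of the macrophage genes lay between -0.21 and 0.28 (28 libraries). With the mean of 9 dissociation stress genes it lay between 0.05 (Cdx1) and 0.51 (Gata4), with Hnf4a at 0.49 and Cdx2 at 0.45. With a macrophage term in the fit, Hnf4g and Klf4 were the members that still passed as lower in Lgr5-high cells over both diets, and 0 of 9 passed for diet. The values of Gata4 and Klf5 stayed negative but did not pass, at -0.66 ± 0.24 (edgeR adjusted p = 0.0914) and -0.45 ± 0.18 (adjusted p = 0.124). Without the term they were -0.65 ± 0.20 and -0.54 ± 0.15. The part of stress genes in these results was not tested.

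In Lgr5-low cells 0 of 9 passed for diet in edgeR, DESeq2 and limma-voom, 0 had an unadjusted p under 0.05, and 5 values were positive and 4 negative, where 50.4% of all genes were negative. Here 0% of the 12495 genes were called in edgeR (371 genes, 2.97%, had an unadjusted p under 0.05, and DESeq2 and limma-voom called 4 and 1). Klf4 averaged 20.2 ± 11.8 CPM on cystine and 29.1 ± 12.0 on control diet (-0.53 ± 0.44, adjusted p = 1) and Klf5 133 ± 18.9 CPM on cystine and 162 ± 59.1 on control diet (-0.29 ± 0.20, adjusted p = 1). In Klf5 all 7 cystine libraries lay under the control median although the ranges overlapped.

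The diet effects were not shown to differ between the populations in any of the 9 (0 called in edgeR, DESeq2 and limma-voom, 0 of 9 with an unadjusted p under 0.05). Over all genes 0% were called by this difference in edgeR, with 3.32% at an unadjusted p under 0.05, 0 genes by DESeq2 and 5 by limma-voom. The lowest p was that of Hnf4a, at -0.25 in Lgr5-high and 0.16 in Lgr5-low cells (difference -0.41 ± 0.23, unadjusted p = 0.0886 in edgeR). Averaged over both populations 0 of 9 passed for diet, in a comparison that called 0.16% of genes and gave 4.21% an unadjusted p under 0.05. Klf4 had the lowest p there (-0.65 ± 0.32, unadjusted p = 0.0467 in edgeR, adjusted p = 1), with 9 of 14 cystine libraries under the control median.

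**Figure D4:**
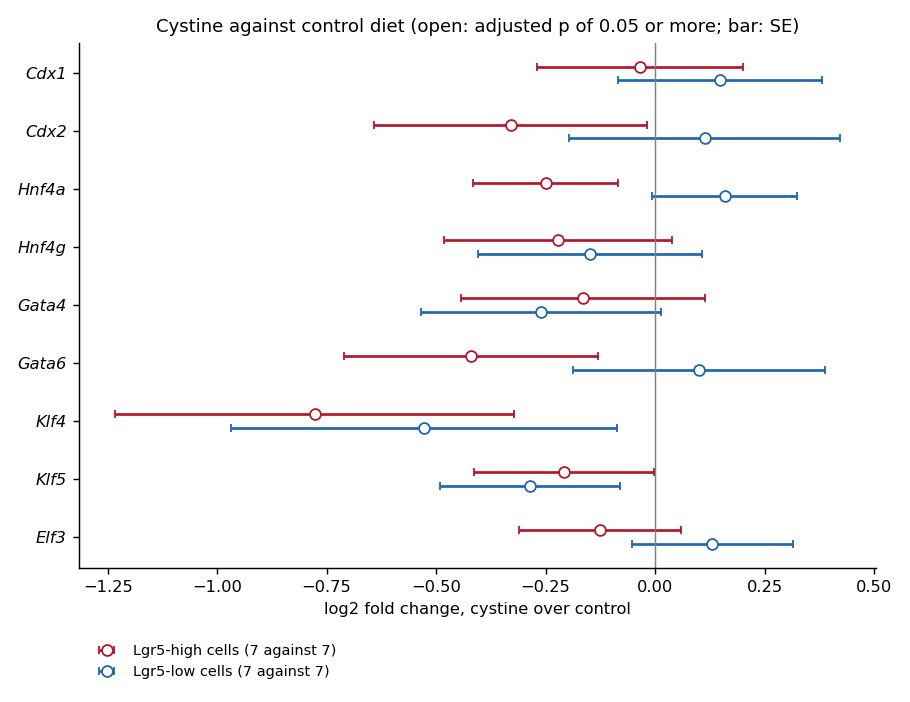
Log2 fold change of each factor on cystine over control diet in Lgr5-high and in Lgr5-low cells (7 against 7 libraries each), with bars for the SE and open points for an adjusted p of 0.05 or more. All 18 points are open, all 9 Lgr5-high values lie under 0, and Klf4 has the lowest value in both populations, -0.78 and -0.53.

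Other transcription factors of the epithelium divided in both directions between the populations. Of 33 listed, 32 were tested, and over both diets 4 were higher in Lgr5-high cells, 2 were lower and 26 did not pass (median log2 fold change -0.12). Higher were Ehf, an ETS factor related to Elf3 (189 ± 39.0 CPM in Lgr5-high and 101 ± 20.2 in Lgr5-low cells, SD, n = 14 each, 0.89 ± 0.12, adjusted p = 4.07e-06), and Hes1, a Notch effector that holds back secretory fate (0.78 ± 0.19, adjusted p = 0.00465). Sox9, a Wnt target of crypt cells (0.63 ± 0.19, adjusted p = 0.0264), and Vdr, the vitamin D receptor (0.48 ± 0.11, adjusted p = 0.00256), were also higher. Lower were Isx, a homeobox gene that restrains vitamin A uptake in the intestine (-0.83 ± 0.18, adjusted p = 0.00237), and Spdef, a goblet cell factor at low level (2.40 ± 1.77 CPM in Lgr5-high and 7.51 ± 4.70 in Lgr5-low cells, -1.62 ± 0.46, adjusted p = 0.0216). Sox9 lost its call without Lgr5-low cystine replicate 7 (0.57, adjusted p = 0.0518). Of these 32, 0 passed for diet in either population in edgeR, and 1 in each population, Vdr, had an unadjusted p under 0.05 (-0.35 in Lgr5-high and -0.32 in Lgr5-low cells).

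Of 25 enterocyte genes of the kind that CDX2 and HNF4 are known to bind, 9 were lower in Lgr5-high cells over both diets, 0 were higher and 16 did not pass. Log2 fold changes were negative for 24 of the 25 (median -0.74). The 4 of lowest p were Cdh17, an intestinal cadherin (200.4 ± 32.4 CPM in Lgr5-high and 308 ± 69.6 in Lgr5-low cells, -0.62 ± 0.11, adjusted p = 0.000268), Myo1a, the brush border myosin (-0.74 ± 0.15, adjusted p = 0.00115), Mttp, which loads fat onto lipoproteins (-0.94 ± 0.19, adjusted p = 0.00127), and Mogat2, an enzyme of fat re-synthesis (-1.28 ± 0.28, adjusted p = 0.00277). Of 9 genes typical of the upper small intestine 1 was lower, the cholesterol transporter Npc1l1 (-1.10 ± 0.28, adjusted p = 0.0102), and of 5 genes typical of the ileum 1 was lower, the bile acid transporter subunit Slc51a (-1.35 ± 0.33, adjusted p = 0.0109). None of the 25 enterocyte genes passed for diet in either population in edgeR (2 with an unadjusted p under 0.05 in Lgr5-high cells, Cdhr5 and Vil1, and 0 in Lgr5-low cells). For cystine over control diet, 24 of 25 values were negative in Lgr5-high cells (median -0.37), as were 52.7% of all genes. In Lgr5-low cells 23 of 25 were negative (median -0.20), as were 50.4% of all genes.

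Among the 9 factors, Hnf4g and Klf4 varied with these enterocyte genes from library to library. After group means were removed, log2 levels over the 28 libraries correlated with the mean of the 25 enterocyte genes at r = 0.77 for Hnf4g and 0.55 for Klf4, and between -0.23 and 0.26 for the other seven, Hnf4a at 0.13. With the mean of the 10 stem cell genes the values were -0.55 for Hnf4g and -0.34 for Klf4, and with the 8 goblet cell genes 0.62 and 0.48. The other seven factors lay between 0.04 and 0.44 with the stem cell genes and between 0.07 and 0.44 with the goblet cell genes, where Hnf4a and Elf3 stood at 0.44 and so close to Klf4. Group by group, the correlation of log2 Hnf4g with the log2 of the summed enterocyte genes was 0.80 in Lgr5-high cystine, 0.74 in Lgr5-high control, 0.67 in Lgr5-low cystine and 0.08 in Lgr5-low control libraries (7 each). These are descriptions over libraries that share depth, preparation and cell mixture.

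**Figure D5:**
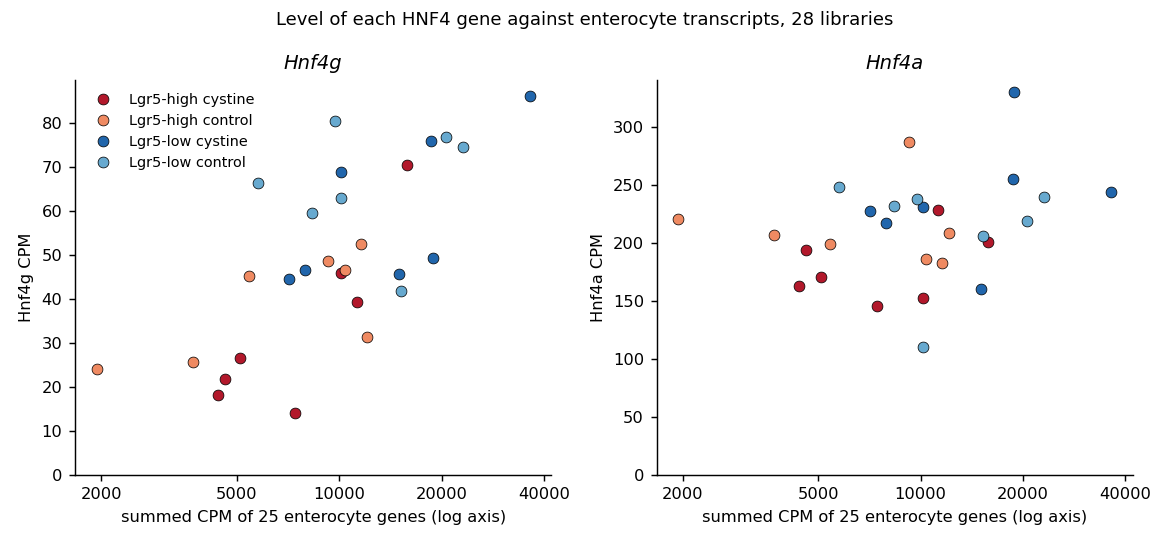
Level of Hnf4g (left) and of Hnf4a (right) in CPM against the summed CPM of 25 enterocyte genes (log axis) in each of the 28 libraries, coloured by group. Hnf4g is higher in libraries with more enterocyte transcripts in 3 groups and shows no such trend in Lgr5-low control libraries, and Hnf4a lies between 110.0 and 329.7 CPM.

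Many of the factors varied together from library to library. Over 36 pairs, within groups, r ran from -0.28 to 0.77 with a median of 0.36, and 30 pairs were positive. The highest were Klf5 with Elf3 (0.77), Gata4 with Elf3 (0.76), Hnf4a with Gata4 (0.74) and Gata4 with Klf5 (0.70). Hnf4g and Klf4 went together (0.66). With the other members Hnf4g lay between -0.18 (Gata6) and 0.36 (Gata4), and Klf4 between -0.28 (Cdx2) and 0.25 (Gata4). With the log of total counts, within groups, Elf3 correlated at 0.46, Cdx2 at 0.36, Klf5 at 0.32, Gata4 at 0.14 and Hnf4a at 0.07. Gata6 stood at 0.03, Cdx1 at -0.03, Klf4 at -0.07 and Hnf4g at -0.13. The part of depth in the correlations between factors was not tested. Pairs of other genes were not examined, so varying together is not shown to be particular to these factors.

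The genes whose pattern over the 28 libraries was most like each factor were sought among 7621 tested genes with a mean of at least 5 CPM. The closest to Hnf4g were Slc26a6, an anion exchanger of the brush border (r = 0.91), Zg16, a lectin of goblet cell mucus (0.89), and Anxa13, an epithelial annexin (0.89). The closest to Klf4 were Slc6a19, the neutral amino acid transporter of the brush border, the aminopeptidase gene Xpnpep1 and Clec2h (0.84 each). Klf5 went with Fzd5, a Wnt receptor (0.82), Cds1 (0.81) and the tight junction gene Cldn3 (0.80), and Elf3 with Cldn3 (0.86), the lamin gene Lmna (0.84) and Cluh (0.84). Hnf4a went with Plekha6, Lad1 and Actr1b (0.84, 0.82 and 0.80), Gata4 with Atp5a1, Prkca and Adipor2 (0.85, 0.83 and 0.82) and Gata6 with Map3k4, Arrb1 and Capn7 (0.75, 0.72 and 0.69). Cdx2 went with Deptor, Hdgf and Fam83e (0.80, 0.80 and 0.79) and Cdx1 with Lsr, Egln1 and Rhou (0.72, 0.71 and 0.71).

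The libraries also divided by Xist, the RNA of the inactive X chromosome. It exceeded 50 CPM in 18 libraries, called the female class here, and stayed at or below 8.90 CPM in 10, the male class, made up of cystine replicates 1 and 2 and control replicates 1 to 3 in both populations. Adjusted for group, 3 of 9 factors were lower in the male class, Elf3 (-0.45 ± 0.11, adjusted p = 0.00448), Klf5 (-0.48 ± 0.13, adjusted p = 0.00552) and Cdx2 (-0.61 ± 0.21, adjusted p = 0.0418), in a comparison that called 17.1% of all genes and 9.04% as lower. Elf3 ran from 35.3 to 86.0 CPM (median 57.3) in the male class and from 51.2 to 101 (median 77.5) in the female class. Of the 36 lowest values, 1 for each factor and group, 26 came from male class libraries, which make up 10 of the 28. The share over all genes was not counted, so this is not shown to be particular to the factors. In each group 1 male class library held the lowest value of 6 factors (Lgr5-high cystine replicate 2, Lgr5-low cystine replicate 1, Lgr5-low control replicate 3) or of 5 (Lgr5-high control replicate 1). Total counts ran from 3.39 to 14.9 M (median 6.46 M) in the male and from 2.75 to 21.5 M (median 14.5 M) in the female class, overlapping ranges, and the deepest Lgr5-high cystine library was of the male class. The part of depth was not tested. The class follows the replicate number, and these cannot be told apart. Within the female class Hnf4g (-0.82, adjusted p = 0.00912), Gata4 (-0.73, adjusted p = 0.00962) and Klf5 (-0.63, adjusted p = 0.000296) were lower in Lgr5-high cells over both diets and Klf4 did not pass (-0.96, adjusted p = 0.128). Cdx1 (adjusted p = 0.0359) and Elf3 (adjusted p = 0.0266) were also lower there. Within the male class Klf4 (-2.05, adjusted p = 0.0124) and Hnf4g (-1.03, adjusted p = 0.0421) passed, and Gata4 and Klf5 did not (-0.51 and -0.35).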

How the data were processed

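The data were bulk RNA libraries of Lgr5-high and Lgr5-low cells of mouse small intestine. Per the labels' protocols, RNA was taken up in TRIzol, purified on columns and made into directional poly(A) libraries. Per the submitters' processing notes, Salmon 1.3.0 and mm10 were used. The authors deposited estimated counts per gene, already whole numbers. Rows with no symbol numbered 1243.

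The counts were tested with edgeR 4.0.16 (R 4.3.3): TMM scaling, filterByExpr, which kept 12495 of 54354 genes, 1 mean per group over all 28 libraries, a robust quasi-likelihood fit, and Benjamini-Hochberg adjustment with a threshold of 0.05. The common biological coefficient of variation was 0.629. The script was tested on simulated data. CPM use TMM sizes, per kb of the union of exons where genes are compared. The intervals are the log2 fold change with 1.96 SE on either side. Family ratios are log2 of counts plus 0.5.

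The members and lists were chosen with earlier results of these data known. Genes named outside the members were those past the threshold in the listed sets (for enterocyte genes, the 4 of lowest p over both diets), with the 3 most alike genes per factor. Alternatives were limma-voom (limma 3.58.1), run with weights for sample quality, DESeq2 1.42.0, RLE scaling, no filter, a filter of 1 CPM in 7 libraries, a replicate block, a sex class term, fits of the compared groups alone (single-diet and single-population comparisons), a fit without libraries under 5 M counts, and 28 fits that each omit a library. The macrophage term, the fits within each class and all ratio tests were added after the data had been seen. Numbers shared by libraries of different groups are not stated to mark an animal.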

Additional observations from a re-analysis of the deposited data

Results flagged for a closer look

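In 3 of the 36 sets of 7 libraries (9 factors in 4 groups) a single library stood apart from the other 6, its gap to the nearest exceeding 0.568 of the range, where chance gives a flag in about 1 of 20 such sets. Hnf4a reached 287 CPM in Lgr5-high control replicate 7, where the next library had 221. Hnf4a was at 110.0 CPM in Lgr5-low control replicate 3, where the next had 206. Klf4 reached 44.3 CPM in Lgr5-low cystine replicate 7, where the next had 23.01.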

How the results depend on the processing

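Over both diets the count of factors lower in Lgr5-high cells was 4, with 4 to 6 under DESeq2, limma-voom with sample quality weights (the weights were not tried apart from the method), RLE scaling, either filter, the replicate block, the sex class term, the deeper libraries (without those under 5 M counts) and the female class. It was 2 with the macrophage term and 2 in the male class, and 3 to 6 when 1 library was left out. The genes called in all numbered 1100 in the main fit, 1485 with DESeq2, 2375 with weighted limma-voom and 1066 with RLE scaling. They numbered 1330 with no filter, 1082 with the filter of 1 CPM, 1344 with the replicate block and 1583 with the sex class term. Deeper libraries gave 1130, the female class 1616, the macrophage term 816 and the male class 290. On control diet the count of 0 became 2 with weighted limma-voom, 1 with the replicate block, 1 in the female class, and 0 to 1 with 1 library left out (1, Klf5 at adjusted p = 0.0322 in edgeR, without Lgr5-low control replicate 3). Of all genes, the main fit called 225 there, weighted limma-voom 800, the replicate block 409 and the female class 674. On cystine the count of 0 became 4 with weighted limma-voom, 1 with the replicate block, 2 with the sex class term, 2 without libraries under 5 M counts, 1 within either class, and 0 to 2 with 1 library left out (2 without Lgr5-high cystine replicate 6, 1 without replicate 4). Of all genes, the main fit called 330 on cystine, weighted limma-voom 910, the replicate block 453 and the sex class term 619. Deeper libraries gave 279, the female class 443 and the male class 108. Hnf4g passed over both diets in 11 of 11 other settings and 28 of 28 repeats that left out a library, Klf4 in 10 and 28, Klf5 in 8 and 28, and Gata4 in 8 and 26. The replicate block changed the calls of Gata4 (-0.57, adjusted p = 0.0708) and Elf3 (adjusted p = 0.0291) and gave 1344 in place of 1100 genes called. Same-numbered libraries of the 2 populations correlated at 0.073 to 0.239 on control and at -0.083 to 0.170 on cystine diet. For an Lgr5-high library, the same-numbered Lgr5-low library was the closest in 4 of 7 cases on control and 3 of 7 on cystine diet. Whether the numbers pair libraries could not be settled, and the main fit treated the libraries as unpaired. Values that turned sign had not passed before. For diet in Lgr5-high cells this was Hnf4g in the female class (0.17). For diet in Lgr5-low cells these were Cdx1 (-0.13 with weighted limma-voom, -0.33 in the female class), Cdx2 (-0.22) and Hnf4a (-0.026) in the female class, Gata4 in deeper libraries (0.13) and Klf5 in the male class (0.057). For the difference they were Cdx1 (0.20) and Hnf4g (0.30) in the female class and Gata4 in deeper libraries (-0.34), and for the populations on control diet Cdx1 in the male class (0.095). For diet over both populations they were Cdx1 (-0.21 with weighted limma-voom, -0.22 in deeper libraries, -0.23 in the female class), Cdx2 in the male class (0.35), and Hnf4g (0.023) and Elf3 (-0.15) in the female class. A further 83 sign changes of values that had not passed were smaller than 1 SE. The causes were not tested. Without libraries under 5 M counts the Gata4 to Gata6 ratio on control diet was -0.91 (adjusted p = 0.0519 over the exact permutation tests). Klf4 held 1 count in its lowest library, Lgr5-high cystine replicate 2 at 3.39 M counts. It held 69 counts in the shallowest library, Lgr5-high cystine replicate 6 at 2.75 M. The part of depth in the level of Klf4 was not tested.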
